A study of Oryza sativa with 6 samples.

Results

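A set of 10 genes of nitrogen assimilation and lysine breakdown was followed in developing rice seeds. The genes are a list of locus numbers with no threshold on their values, drawn up with earlier results of these data known. All of them were found among the 55986 loci of the expression table. They comprise 4 glutamine synthetases, 3 glutamate synthases (GOGAT), 2 alanine aminotransferases (AlaAT) and the lysine-degrading enzyme LKR/SDH. The table lists locus numbers without gene names, so each name used here rests on the locus number alone.

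RNA was sequenced from dehulled seeds 10 to 14 days after flowering, grown in chambers at 27 °C under a day of 12 h light and 12 h dark. One group was the wild-type cultivar ZH11, the japonica rice Zhonghua 11. The other was the rbpl line, with a knockdown of RBP-L, a protein that binds RNA. There were 3 biological repeats of each (WT-1, WT-2 and WT-3 against rbpl-1, rbpl-2 and rbpl-3), and values per library are always given in this order. The design asks how the transcripts of the grain respond to lowered RBP-L. A single knockdown line was compared with the cultivar, so RBP-L and the descent of the line cannot be told apart.

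Glutamine synthetase (GS) joins ammonium to glutamate, and glutamate synthase passes the amide nitrogen of glutamine on to 2-oxoglutarate, which yields glutamate. Rice has cytosolic GS1 enzymes, a plastid GS2 and NADH-dependent GOGATs. It also has a ferredoxin-dependent Fd-GOGAT that works with GS2 in chloroplasts, where both recover the ammonium of photorespiration. In a filling grain the nitrogen arrives mainly as amino acids, glutamine and asparagine above all. Alanine aminotransferase moves amino groups between glutamate and pyruvate, and LKR/SDH carries out the opening steps of lysine breakdown by way of saccharopine, which is one limit on the lysine content of cereal grain.

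Levels are given as RPKM, reads scaled to gene-model length and library depth by the authors, so that genes can be compared with each other. Library totals recovered from these values were between 44187374 and 50714582 reads. The knockdown was seen at its target: the level of RBP-L (LOC_Os04g53440) averaged 56.9 ± 5.79 RPKM in wild-type libraries and 14.9 ± 0.481 RPKM in rbpl libraries (SD, n = 3 each). WT-1 stood apart. Over the 17507 tested loci its log2 values had correlations of 0.965 and 0.966 to the other wild-type libraries, which correlated at 0.995 with each other. Results that turn on WT-1 are therefore given with and without it. As a check of the tissue, 12 loci listed as endosperm storage and starch genes and 6 listed as embryo and aleurone genes all had reads in every library. Their summed levels were 21241 to 33589 RPKM and 6228 to 7935 RPKM.

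Of the 10 genes, 1 rose in the knockdown, the plastid glutamine synthetase GS2, at 1.55 times the wild-type level. The cytosolic isoforms GS1;1 and GS1;3 were at 1.25 and 1.26 times the wild-type level, with every knockdown library above every wild-type library, but did not pass the test. The third cytosolic isoform GS1;2, the GOGATs, both AlaATs and LKR/SDH overlapped between the groups. No gene fell: limma called 0 of the 9 tested genes lower, 0 of them were lower with an unadjusted p below 0.05 (12.2% of all tested loci were), and limma-voom on the recovered reads called 0 (3.26% of all tested loci). The tenth gene, NADH-GOGAT2, was too low for the test, which required a mean of at least 1 RPKM in a group.

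Changes were tested with limma on log2(RPKM + 1) with Benjamini-Hochberg adjustment over all 17507 tested loci, at a threshold of 0.05. The share of all tested loci that rose was 3.46%, and the share that fell was 3.10%. Against these shares, 1 gene of 9 does not set the genes apart. The median log2 fold change was −0.05 over the 9 genes and −0.04 over all tested loci.

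**Figure D1:**
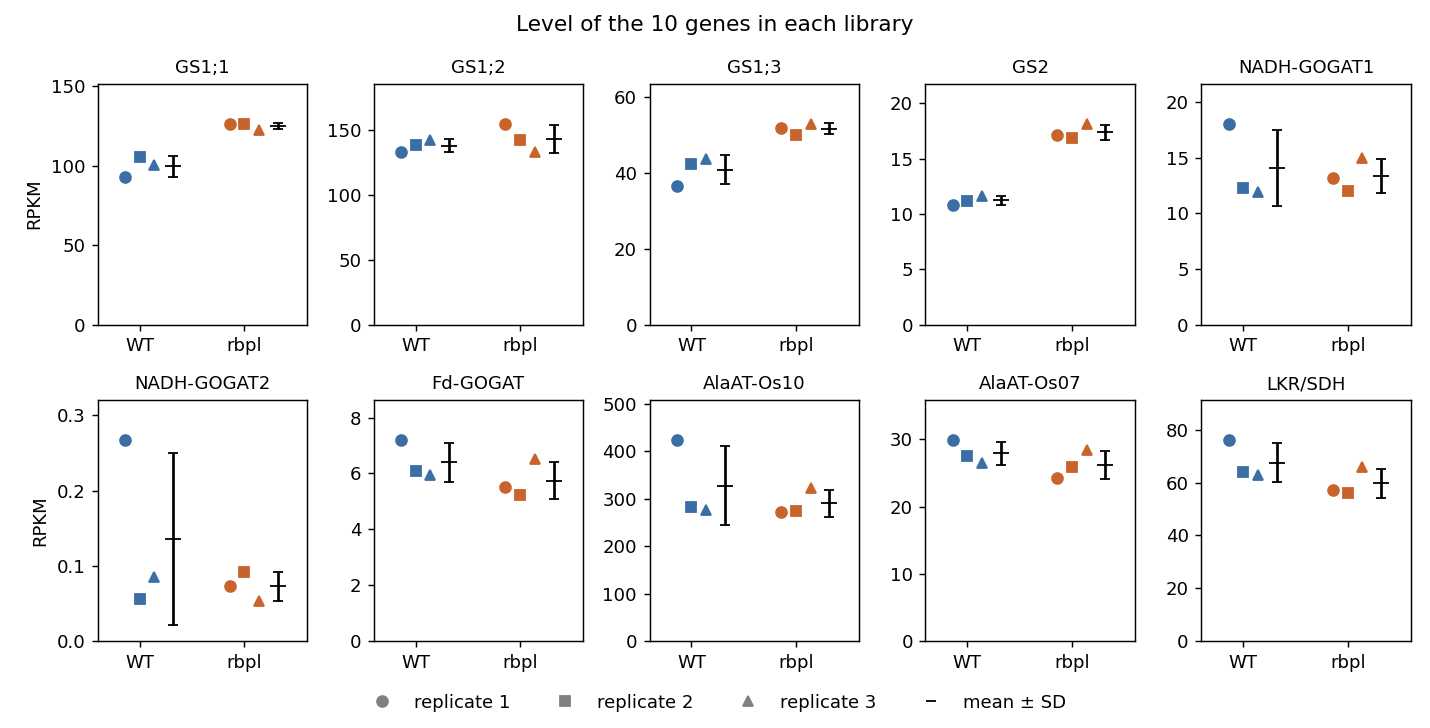
RPKM of the 10 genes in each library, with 1 panel per gene on its own linear axis from 0. Symbols are the 3 replicates of the wild type (blue) and of rbpl (orange), and the bar beside them is the mean ± SD (n = 3). GS1;1, GS1;3 and GS2 have all knockdown libraries above all wild-type libraries, and the other 7 genes overlap.

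By level, the chromosome 10 AlaAT was the most abundant of the 10 genes in both groups, at 327 ± 82.9 RPKM (SD, n = 3) in the wild type, above 98.5% of the tested loci. In the wild type it was followed by GS1;2, GS1;1, LKR/SDH, GS1;3, the chromosome 7 AlaAT, NADH-GOGAT1, GS2, Fd-GOGAT and NADH-GOGAT2. No gene shared its range over the 3 libraries with its neighbour in this order, in either group. The narrowest step in the wild type was between NADH-GOGAT1, at 11.9 RPKM or more, and GS2, at 11.6 RPKM or less. In rbpl these 2 genes changed places, with GS2 at 16.9 to 18.1 RPKM and NADH-GOGAT1 at 12.0 to 15.0 RPKM. All other ranks were the same in both groups.

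GS2 (LOC_Os04g56400, chromosome 4, with a model length of 2340 bp as recovered from the RPKM steps) is the plastid isoform. It was at 10.8, 11.2 and 11.6 RPKM in the wild-type libraries, from 1192, 1156 and 1381 reads, and at 17.1, 16.9 and 18.1 RPKM in the knockdown libraries, from 1907, 1983 and 2054 reads. The groups were far apart relative to their spread, with means of 11.2 ± 0.409 and 17.4 ± 0.662 RPKM (SD, n = 3 each). On the log2 scale GS2 rose by 0.59 (standard error 0.09, adjusted p = 0.0100, limma). An exact permutation test of the RPKM values, two-sided, gave p = 0.1, the smallest that 3 against 3 libraries allow. The size of the change did not rest on WT-1, since without it rbpl was at 1.52 times the wild-type level. The call needed all 3 knockdown libraries: without rbpl-1, rbpl-2 or rbpl-3 the adjusted p by limma was 0.0586, 0.0607 and 0.0580, with log2 fold changes of 0.60, 0.61 and 0.56.

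GS2 and transcripts of green tissue were both higher in the knockdown libraries. Of 14 loci listed as Rubisco small subunit, chlorophyll-binding and related photosynthesis genes, 14 were higher in rbpl. Their median log2 fold change was 0.70, against −0.04 over all tested loci. By limma 3 passed the test, where 3.46% of all tested loci rose. By limma-voom 5 passed (3.44% of all tested loci rose by it). Without WT-1, 12 passed by limma, where 8.51% of all tested loci rose. With any 1 knockdown library left out, 0 passed by limma. The summed level of the 14 loci was 4507, 9213 and 8761 RPKM across the wild type and 11882, 12359 and 10727 RPKM across the knockdown, and none of the 14 was at 0 in a library. The 2 measures parted in WT-1, where the green-tissue sum was 50.2% of the mean of WT-2 and WT-3 while GS2 was 94.9% of it. They also differed within the knockdown, where rbpl-3 was highest for GS2 and lowest for the green-tissue sum. In rbpl-3 they were at 162% and 143% of their wild-type means. With all libraries the sum was 1.56 times as high in rbpl and GS2 1.55 times as high. Without WT-1 the values were 1.30 times for the sum and 1.52 times for GS2. The part of green tissue in the GS2 result was not tested. In RNA from whole seeds, a different share of cells of a type and a different amount of RNA per cell cannot be told apart.

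Fd-GOGAT (LOC_Os07g46460, chromosome 7, 5804 bp), the chloroplast partner of GS2, did not pass the test. Its levels were 7.18, 6.08 and 5.93 RPKM across the wild type and 5.52, 5.22 and 6.51 RPKM across the knockdown. The groups overlapped through rbpl-3, which lay above WT-2 and WT-3. Fd-GOGAT had a log2 fold change of −0.13, with a 95% interval from −0.41 to 0.14 and an adjusted p of 0.572 by limma, so a fall to 0.75 times or a rise to 1.11 times the wild-type level on this scale is within the interval. Without WT-1 the log2 fold change of Fd-GOGAT was −0.058. The ratio of GS2 to Fd-GOGAT was 1.51, 1.84 and 1.96 in the wild-type libraries and 3.10, 3.24 and 2.79 in the knockdown libraries. The balance of this plastid pair was thus 1.72 times as far toward GS2 in rbpl, given here as a description with no test.

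**Figure D2:**
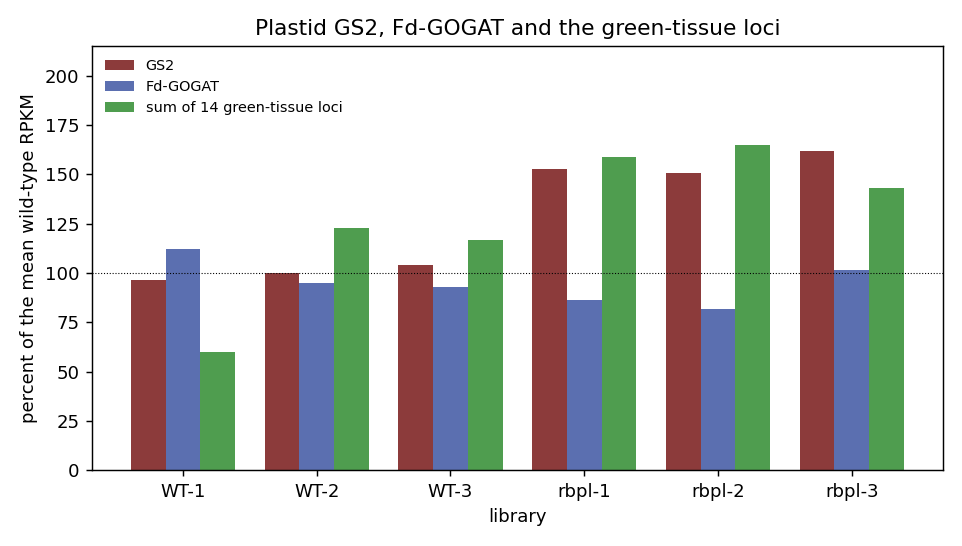
Level of GS2, of Fd-GOGAT and of the summed 14 green-tissue loci in each library, as a percent of the mean wild-type RPKM of the same measure (dotted line at 100). GS2 is at 151 to 162% in rbpl and Fd-GOGAT at 81.6 to 102%, and the green-tissue sum is at 60.1% in WT-1.

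GS1;1 (LOC_Os02g50240, chromosome 2, 1808 bp) is the cytosolic isoform known in rice for grain filling and for ammonium reuse in leaves. It was at 92.6, 106 and 100 RPKM across the wild type and at 126, 126 and 123 RPKM across the knockdown. Every knockdown library was above every wild-type library. The coefficient of variation was 6.61% for the wild-type libraries and 1.61% for the knockdown libraries. Its log2 fold change was 0.33 with a 95% interval from 0.10 to 0.55, and the adjusted p of 0.0979 by limma did not pass.

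GS1;3 (LOC_Os03g50490, chromosome 3, 1714 bp) is the isoform known from rice spikelets. Its levels were 36.6, 42.4 and 43.6 RPKM across the wild type and 51.9, 50.1 and 53.0 RPKM across the knockdown. The groups did not overlap and the fold, 1.26, was close to the 1.25 of GS1;1. The log2 fold change was 0.33 with a 95% interval from 0.09 to 0.58 and limma's adjusted p was 0.112. Both isoforms passed without WT-1, with adjusted p of 0.0351 for GS1;1 and 0.0498 for GS1;3 by limma. The share of loci that rose was then 8.51%, against 3.46% with all libraries. Their log2 fold changes without WT-1 were smaller, 0.28 and 0.26.

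GS1;2 (LOC_Os03g12290, chromosome 3, 2034 bp), known in rice as the ammonium-responsive isoform of the root, was the most abundant glutamine synthetase of the seed. It was at 133, 139 and 143 RPKM across the wild type and at 155, 142 and 133 RPKM across the knockdown. The groups overlapped, with rbpl-3 almost as low as WT-1. The fitted log2 difference was 0.05 with a 95% interval from −0.19 to 0.29 and an adjusted p of 0.813 by limma.

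Groups that do not overlap were therefore found at 3 of the 10 genes, all glutamine synthetases and all higher in rbpl. Over all tested loci 12.2% had every knockdown library above every wild-type library, and 17.9% the reverse, which 0 of the 10 genes showed.

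Summed over the 4 isoforms, glutamine synthetase transcript was at 273, 298 and 299 RPKM across the wild type and at 350, 336 and 327 RPKM across the knockdown. The sum was 1.16 times as high in rbpl, and its groups did not overlap. The cytosolic isoforms supplied most of it, with means of 279 ± 14.1 RPKM for the wild type and 320 ± 12.0 RPKM for rbpl (SD, n = 3 each). The makeup of the sum shifted as well. The share of GS1;2 was 47.7 ± 1.11% (SD, n = 3) in the wild type and 42.5 ± 1.76% in rbpl. That of GS1;1 went from 34.3 ± 0.989% to 37.0 ± 0.921%, that of GS1;3 from 14.1 ± 0.618% to 15.3 ± 0.757% and that of GS2 from 3.87 ± 0.107% to 5.15 ± 0.344%. The groups did not overlap for any of these 4 shares, which depend on one another and are given with no test.

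**Figure D3:**
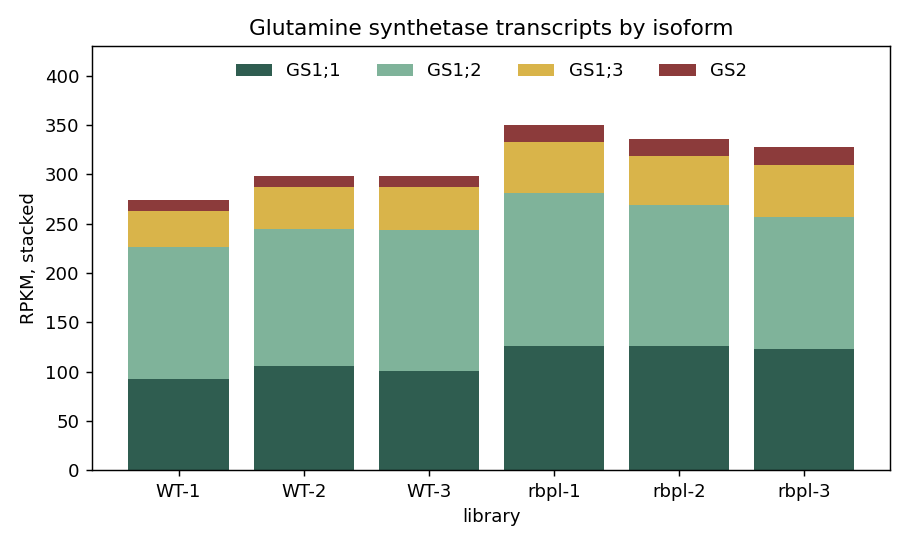
Stacked RPKM of the 4 glutamine synthetase isoforms in each library, on a linear axis from 0. The bars reach 273 to 299 RPKM in the wild type and 327 to 350 RPKM in rbpl, and GS1;2 is the largest block in each.

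Among the glutamate synthases, NADH-GOGAT1 (LOC_Os01g48960, chromosome 1, 7061 bp), which in rice serves young sink organs, held 68.0 ± 2.43% (SD, n = 3) of the summed RPKM of the 3 genes in the wild type and 69.7 ± 0.446% in rbpl. Per library this share was 70.8, 66.6 and 66.5% across the wild type and 70.2, 69.3 and 69.5% across the knockdown. The difference was 1.70 percentage points with all libraries and 3.10 without WT-1, with no test. The level of NADH-GOGAT1 was 18.0, 12.2 and 11.9 RPKM across the wild type and 13.2, 12.0 and 15.0 RPKM across the knockdown. WT-1 was the highest library by a wide margin, 49.2% above the mean of WT-2 and WT-3. The log2 fold change was −0.05 with a 95% interval from −0.44 to 0.34 and an adjusted p of 0.893 by limma. Its sign turned to 0.13 without WT-1, with an adjusted p of 0.439 by limma.

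NADH-GOGAT2 (LOC_Os05g48200, chromosome 5, 6926 bp), which in rice acts in mature leaves, was close to silent in these seeds. It was at 0.267, 0.0555 and 0.0854 RPKM in the wild-type libraries, from 87, 17 and 30 reads, and at 0.0727, 0.0921 and 0.0537 RPKM in the knockdown libraries, from 24, 32 and 18 reads. WT-1 alone was high, at 3.79 times the mean of WT-2 and WT-3, and the other 5 libraries overlapped. With no filter on low values its adjusted p was 0.637 by limma.

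The 2 alanine aminotransferases differed 11.6-fold in mean ratio in the wild type and 11.1-fold in rbpl. The chromosome 10 gene (LOC_Os10g25130, 2174 bp) was at 423, 282 and 277 RPKM across the wild type and at 272, 275 and 323 RPKM across the knockdown. WT-1 lay far above the other 5 libraries. On the log2 scale the change was −0.15, with a 95% interval from −0.56 to 0.27 and an adjusted p of 0.680 by limma, and it turned to 0.05 without WT-1, with an adjusted p of 0.769.

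The chromosome 7 gene (LOC_Os07g42600, 2243 bp) varied less, at 29.9, 27.5 and 26.5 RPKM across the wild type and 24.2, 25.9 and 28.4 RPKM across the knockdown. Its groups overlapped, with a log2 fold change of −0.09, a 95% interval from −0.33 to 0.15 and limma's adjusted p of 0.661. Without WT-1 its log2 fold change was −0.046. The chromosome 10 gene held 91.1 to 93.4% of the summed RPKM of the pair in every library. The ratio of the 2 genes was 14.2 in WT-1 and 10.2 to 11.4 in the other 5 libraries.

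LKR/SDH (LOC_Os02g54254, chromosome 2, 4511 bp) was well expressed, above 92.2% of the tested loci in the wild type. It was at 76.0, 64.1 and 62.7 RPKM across the wild type and at 57.0, 56.1 and 65.9 RPKM across the knockdown. The overlap came from rbpl-3, which lay above WT-2 and WT-3, while rbpl-1 and rbpl-2 were the lowest libraries. The log2 fold change was −0.18 with a 95% interval from −0.45 to 0.10 and an adjusted p of 0.445 by limma. On this scale the interval runs from 0.73 to 1.07 times the wild-type level. Without WT-1 the log2 fold change of LKR/SDH was −0.089 and did not pass either.

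**Figure D4:**
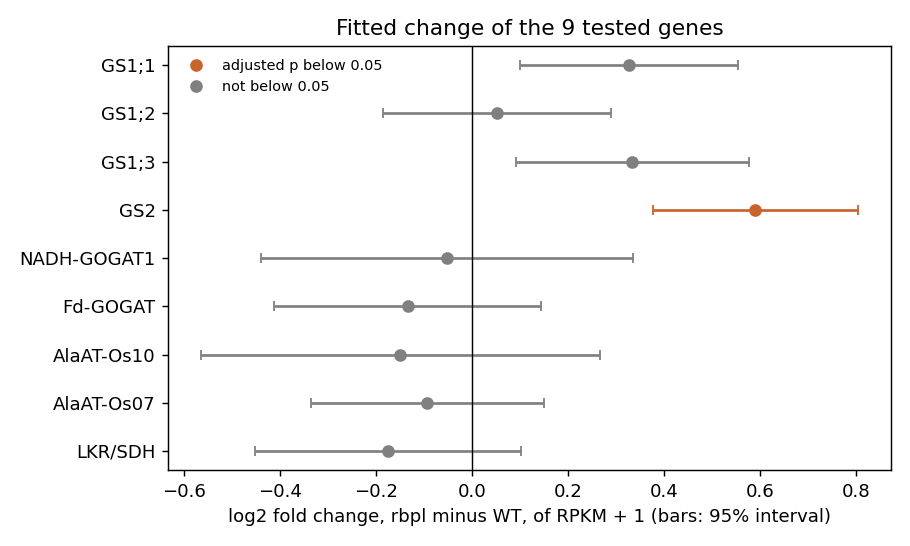
Log2 fold change (rbpl minus wild type, of RPKM + 1) of the 9 tested genes with 95% intervals from limma. GS2 (orange) passed the adjusted threshold of 0.05. The intervals of GS1;1 and GS1;3 (grey) lie above 0 without passing after adjustment, and those of the other 6 genes span 0.

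Within the groups, 5 of the tested genes shared a profile across libraries. NADH-GOGAT1, Fd-GOGAT, both AlaATs and LKR/SDH were each highest in WT-1 among the wild-type libraries and highest in rbpl-3 among the knockdown libraries. All 4 glutamine synthetases were lowest in WT-1 among the wild-type libraries, as were 33.2% of all tested loci. They did not share a profile in the knockdown, where GS1;3 and GS2 were highest in rbpl-3 while GS1;1 and GS1;2 were lowest there. The excess of WT-1 over the mean of WT-2 and WT-3 ran from 10.5% for the chromosome 7 AlaAT to 51.4% for the chromosome 10 AlaAT. In comparison, WT-1 was at 94.9% of that mean for GS2 and at 85.1% for GS1;3. Of all tested loci 30.9% had the highest values in WT-1 and rbpl-3, so 5 of 9 genes with this profile are described without a test.

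Values of the marker loci in the same libraries went partly the same way. The summed endosperm storage and starch loci were at 33589, 22535 and 26143 RPKM across the wild type and at 21241, 22054 and 25169 RPKM across the knockdown, again highest in WT-1 and rbpl-3. WT-1 was at 1.38 times the mean of WT-2 and WT-3 for this sum. Of the 12 loci in it, 7 were highest in WT-1 and rbpl-3, against 30.9% of all tested loci. Their means ran from 43.1 to 6326 RPKM, so the abundant loci weigh most in the sum. The part of the endosperm share in the profiles was not tested. The embryo and aleurone sum ran from 6228 RPKM in WT-1 to 7935 RPKM in rbpl-1. For 3 of the 36 pairs of tested genes all 6 libraries came in the same order: GS1;3 with GS2, Fd-GOGAT with LKR/SDH, and the 2 AlaATs with each other.

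**Figure D5:**
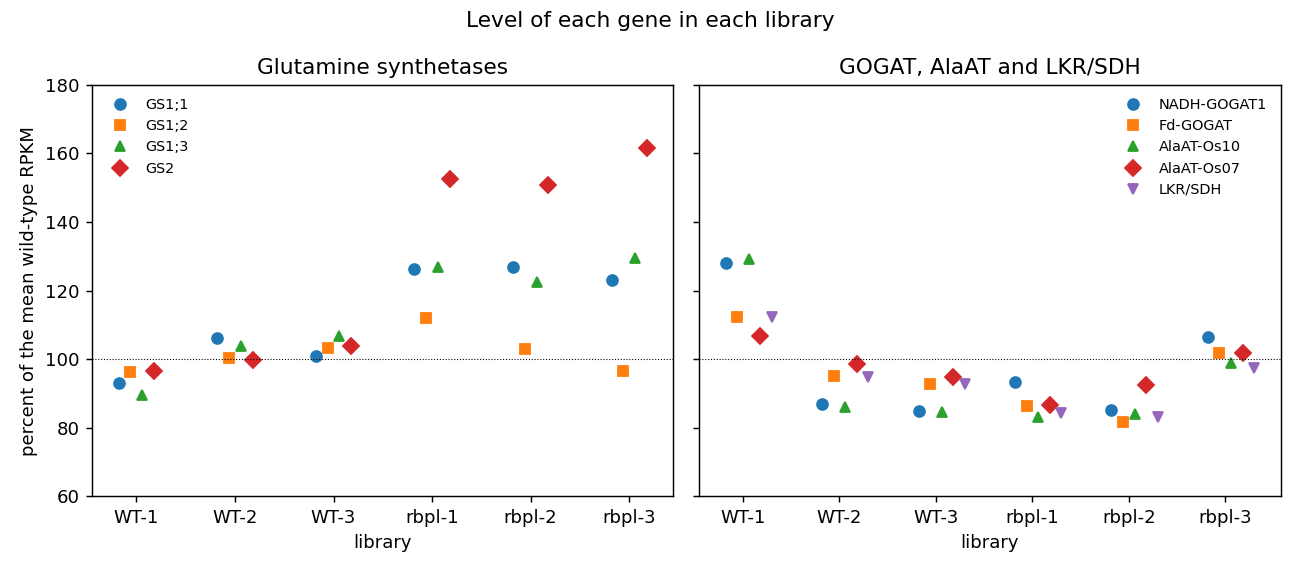
Level of each tested gene in each library as a percent of its own mean wild-type RPKM (dotted line at 100), for the glutamine synthetases (left) and the other 5 genes (right). In WT-1 the left-hand genes lie below 100 and the right-hand genes above it, and GS2 lies at 151 to 162% in rbpl.

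Another 25 loci, listed by locus number as genes of connected steps, were counted to place the 10 genes in their pathway. The steps are nitrate and nitrite reduction, ammonium uptake, asparagine synthesis, glutamate dehydrogenase, aspartate aminotransferase, and the route from aspartate kinase to lysine. Of these loci, 18 passed the filter on low values, and limma called 0 as risen and 0 as fallen. With an unadjusted p below 0.05, 2 of the 18 were higher and 4 lower, against 9.41% and 12.2% of all tested loci. By limma-voom 1 rose and 0 fell, against 3.44% and 3.26% of all tested loci. The median log2 fold change was −0.15, against −0.04 over all tested loci, with 5 higher and 13 lower. The directions were not counted without WT-1. Summed over the 25 loci, the level was 1009, 781 and 785 RPKM across the wild type and 786, 755 and 842 RPKM across the knockdown. The excess of the wild type in this sum thus lay in WT-1.

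By step, 3 of the 4 aspartate aminotransferase loci and 5 of the 7 loci from aspartate kinase to lysine had lower fitted values in rbpl, none past the threshold. These directions include WT-1, and all 4 and all 7 loci were highest in WT-1 and rbpl-3. The sum of the 4 was 772, 578 and 587 RPKM across the wild type and 600, 572 and 636 RPKM across the knockdown. That of the 7 was 116, 100 and 97.4 RPKM against 93.8, 90.4 and 109 RPKM. The smallest adjusted p, 0.0616 by limma, belonged to a locus from aspartate kinase to lysine with a log2 fold change of 0.55. Both asparagine synthetase loci were tested, with log2 fold changes from −0.25 to 0.06. Nitrate and nitrite reduction was almost silent in these seeds: 1 of its 5 loci passed the filter, and the sum of the 5 was 3.90, 3.82 and 3.72 RPKM across the wild type and 2.54, 2.27 and 2.60 RPKM across the knockdown. The groups of this sum did not overlap, and 17.9% of all tested loci likewise had every knockdown library below every wild-type library. The tested locus was at −0.36 on the log2 scale, where limma's adjusted p was 0.114. It averaged 2.37 RPKM over the 6 libraries and made up most of the sum, so the 2 are not separate results. The sum of the 3 ammonium uptake loci lay the other way, at 5.10, 5.91 and 5.40 RPKM against 7.66, 7.17 and 6.60 RPKM. Its 1 tested locus had a log2 fold change of 0.31 with limma's adjusted p at 0.131. That locus averaged 6.24 RPKM over the 6 libraries and likewise made up most of its sum. All 3 tested glutamate dehydrogenase loci had lower fitted values in rbpl, with log2 fold changes from −0.25 to −0.14, none past the threshold. Here too WT-1 stood out, with a sum over the list of 33.6, 24.3 and 24.4 RPKM against 23.8, 22.0 and 25.2 RPKM. The aspartate aminotransferase list was the most abundant, at 572 to 772 RPKM in sum. Of the 18 tested loci, 15 were highest in WT-1 and rbpl-3, as 5 of the 9 tested genes above were, against 30.9% of all tested loci.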

How the data were processed

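The authors deposited 1 table with the RPKM of 6 libraries and their group means in RPKM, per the file headers. The aligner, the counter, the build and the annotation used were not stated in the labels or headers. Libraries were made with a NEBNext Ultra kit, per the labels' protocols. No strand setting is stated, so reads of antisense partners could be shared. How reads that match close copies, such as the GS1 genes, were assigned is not stated either, so these could also be shared. Library totals, gene-model lengths and whole reads were recovered from the steps in the RPKM. Of 32287 loci with a value above 0, 100% gave whole reads within a tolerance of 0.001 reads, widened slightly at high counts. A divisor shared by all 6 counts would be missed.

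Read-count tests were planned for a file of counts. As the file holds RPKM, limma 3.58.1 with its trend and robust options (R 4.3.3) was run on log2(RPKM + 1) for the 17507 loci with a mean of at least 1 RPKM in a group. Log2 fold changes on this scale understate those of low genes. Intervals of fold changes are 95% limma intervals. Python 3.11.15 with numpy 2.4.6, pandas 2.3.3, scipy 1.17.1 and matplotlib 3.10.9 served for the rest. Recovery and test were checked on simulated data. The replicate numbers did not pair the libraries. The members and all lists were chosen with earlier results of these data known. Named genes are the 10 members and RBP-L. The lists of marker and pathway loci rest on locus numbers from general knowledge, which the files do not annotate, so only counts and sums are given. No gene names or sequences for these loci were found in the reference used here.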

Additional observations from a re-analysis of the deposited data

How the results depend on the processing

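The main fit was set beside 13 alternatives. Over 9 genes and 13 alternatives, 107 of 117 values kept direction and side of the threshold. GS2 kept its direction throughout, at 0.56 to 0.66 on the log2 scale, with limma's adjusted p between 0.000999 and 0.0607. Its call was lost without each knockdown library, where the count of changed loci also fell. RBP-L kept its call in all 13, from −1.93 to −1.79. Leaving out 1 library gave 0 to 3 genes that rose (3 without WT-1, 0 without rbpl-1, rbpl-2 or rbpl-3), 0 to 1 pathway loci that rose, and 356 to 3130 changed loci of all, against 1148. A filter at 5 RPKM, which tests fewer loci, gave 660. Median-of-ratios scaling, upper-quartile scaling and limma-voom each gave 1 pathway locus that rose, against 0, and the cause was not tested. The log2 fold change of NADH-GOGAT1 turned sign under median-of-ratios scaling (0.020), and ran from −0.15 without WT-3 to 0.13 without WT-1 as single libraries were left out. That of GS1;2 ran from −0.0045 without rbpl-1 to 0.10, and that of the chromosome 10 AlaAT from −0.25 to 0.050 without WT-1. None of these 3 genes passed the test under any of the 13. The replicate numbers are only shared: deviations of same-numbered libraries correlated at 0.0476, 0.259 and −0.380. A fit with a block for replicate number called 963 loci, and GS2 kept its call, with an adjusted p of 0.0357 by limma. The deposited unit is RPKM, and limma-voom was the only test run on the recovered reads. The read-count tests edgeR and DESeq2 were not run on them. Among the 10 genes depth limits NADH-GOGAT2, with 17 to 87 reads a library.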
